A study of Felis catus with 6 samples.

Results

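AQP1, HAVCR1 and GATA3 are 3 genes that mark the identity or the injury of the kidney tubule, and they were found by their symbols among the 633 genes of the authors' deposited table. All 3 were present, each in 1 row, with the identifiers gene-AQP1, gene-HAVCR1 and gene-GATA3. PETCC2610, a line of cat kidney cells, was profiled by polyA RNA-seq, with 3 libraries in each of 2 groups. Cells of the first group were given DOX, the agent used to make them senescent, and cells of the second group (DOX+PeptideE) were given DOX together with peptide E, so both groups carry DOX and differ by the peptide. Peptide E is traced by the series title to a Bifidobacterium adolescentis fermentation. The sources used here give no dose, no time and no kidney segment of origin for the line. The series text speaks of biological replicates, but how their cultures were kept apart is not described, so p-values measure the spread between these libraries, which may be technical. No library of cells free of DOX was analysed here.

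The kidney tubule is lined by epithelial cells whose genes differ from segment to segment. AQP1 encodes aquaporin 1, the water channel of the proximal tubule and of the thin descending limb of the loop of Henle, through which water follows reabsorbed solute; red blood cells also carry it. HAVCR1 encodes KIM-1, a membrane protein that is scarce in the healthy proximal tubule and abundant after injury, when it lets tubule cells bind and take up dying neighbours. GATA3 encodes a zinc finger transcription factor that acts in the nephric duct and ureteric bud during development and persists in the distal nephron and collecting duct, and it is also known as a regulator of T helper cells. The comparison asks whether transcripts of these 3 kinds moved together when peptide E was added to cells under DOX.

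They did not move alike in the deposited values, and the authors had listed GATA3 as higher and AQP1 and HAVCR1 as lower. GATA3 rose with peptide E, from 10.7 ± 0.75 to 19.9 ± 4.91 (SD, n = 3 each). AQP1 was lower with peptide E in every library, at 2.98 ± 0.14 against 2.19 ± 0.24 (SD, n = 3 each), but this difference did not pass the test across the table on the deposited scale. HAVCR1 stood at 1.21 ± 0.252 and 1.0 ± 0.386 (SD, n = 3 each), and its groups overlapped. In RNA of whole cultures, a change in the number of cells that express a gene and a change in RNA per cell cannot be told apart. The values are the authors' normalized expression signal, here called the expression value, whose unit is not stated. Whether it is divided by transcript length is not stated either, so the position of the 3 genes relative to one another holds for the deposited values only.

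The table is a selection. Each of its genes is marked significant by the authors, with unadjusted p-values up to 0.0498 and changes of 1.5-fold or more up or down, so AQP1, HAVCR1 and GATA3 were all chosen on these 6 libraries before any test here. Of the 633 genes, 293 are listed higher with peptide E and 340 lower. With limma on log2(value + 1), 499 genes were tested, namely those whose mean reached 1 in either group, with AQP1, HAVCR1 and GATA3 among them, and 71.1% passed a Benjamini-Hochberg adjusted p of 0.05 (47.5% higher and 23.6% lower with peptide E). GATA3 was the 1 member of 3 that passed. The groups did not overlap in 76.1% of the genes in the table, and in 2 of the 3 members, AQP1 among the 32.7% that were lower without overlap and GATA3 among the 43.4% that were higher. Neither share of the members stands out from a table selected in this way. Depth per library is unknown because the values carry no read counts. No gene absent from the table was analysed here.

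In the DOX libraries AQP1 was at 2.83, 3.11 and 2.99 in replicates 1, 2 and 3. With peptide E it was at 1.91, 2.32 and 2.33. Every peptide E library lay below every DOX library, and the gap between the groups, from 2.33 to 2.83, was wider than the spread within either one. The mean was 1.36-fold lower with peptide E. In limma the log2 change was -0.32 (SE 0.17), with a 95% interval of -0.68 to 0.04 (limma, Benjamini-Hochberg adjusted p = 0.0897). The 2-sided exact permutation test gave p = 0.1, the smallest value that 3 libraries against 3 allow. AQP1 varied little between libraries of a group. Its coefficient of variation was 4.72% among the DOX libraries and 11.0% among the peptide E libraries, where the medians over the 499 tested genes were 11.4% and 22.4%.

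HAVCR1 was at 1.28, 1.42 and 0.93 in DOX replicates 1, 2 and 3, and at 0.58, 1.08 and 1.34 with peptide E. Peptide E replicate 1 held the lowest value of all 6 libraries, while peptide E replicate 3 lay above DOX replicates 1 and 3, so the groups overlapped. In limma the log2 change was -0.16 (SE 0.18), with a 95% interval of -0.55 to 0.23 (limma, adjusted p = 0.405). The exact permutation test gave p = 0.6 (2-sided). Without peptide E replicate 1 the log2 fold change of the deposited values was 0.00 (limma, adjusted p = 0.979), so on this scale the lower mean rests on that library. With library factors fitted to the authors' fold changes, it was -0.17 without that library (limma, adjusted p = 0.211). Only 2 of the 257 tested genes listed lower had a smaller limma change, and only 6 of the 499 had a larger adjusted p. HAVCR1 was also the most scattered of the 3, with a coefficient of variation of 20.9% with DOX and 38.6% with peptide E. The latter exceeded that of 471 of the 499 tested genes. At values near 1 the counting error may be large, and it could not be measured without read counts.

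GATA3 was at 11.35, 10.82 and 9.87 in DOX replicates 1, 2 and 3, and at 15.3, 19.45 and 25.08 with peptide E. The lowest peptide E library, at 15.3, lay above the highest DOX library, at 11.35. The mean was 1.87-fold higher with peptide E, and the log2 change in limma was 0.82 (SE 0.19), with a 95% interval of 0.41 to 1.22 (limma, adjusted p = 0.00741). The exact permutation test gave p = 0.1 (2-sided), again the smallest possible. The peptide E libraries differed among themselves by 1.64-fold from lowest to highest, and the DOX libraries by 1.15-fold. Each fit with 1 library left out kept the call, at log2 fold changes of 0.65 to 0.99 and limma adjusted p-values of 0.000274 to 0.0415. Among the 242 tested genes listed higher the median limma log2 fold change was 0.74, and 181 of them changed less than GATA3, so its size is not unusual for the genes the authors listed as higher.

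**Figure D1:**
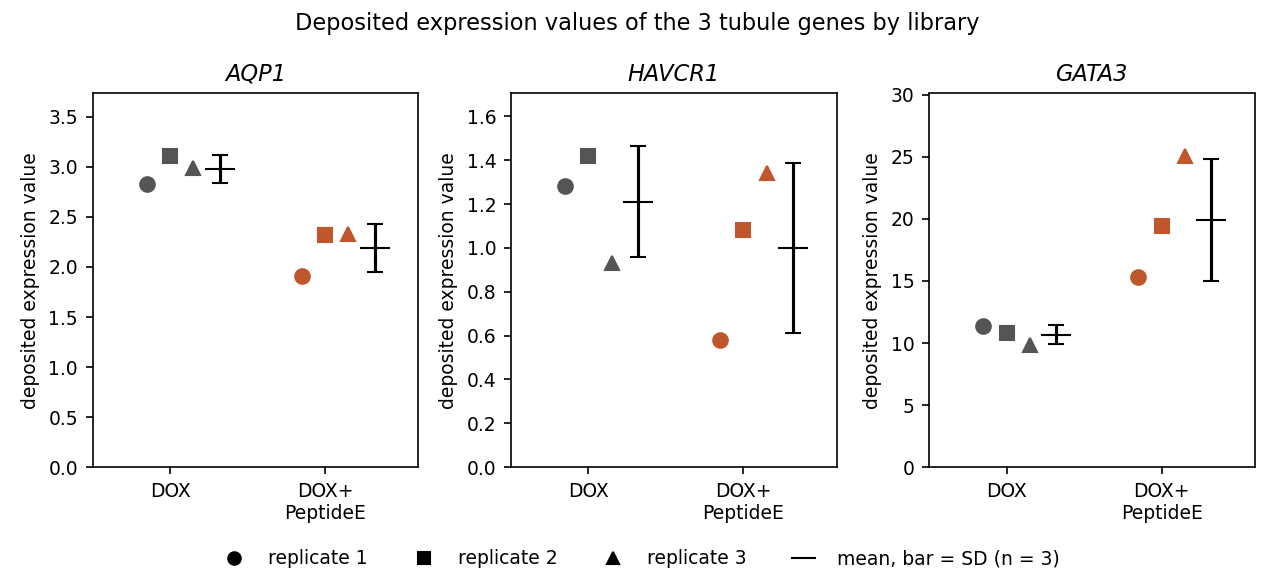
Deposited expression values (vertical axes, linear from 0, unit not stated) of AQP1, HAVCR1 and GATA3 in each library, by group, with the mean and SD of 3 libraries beside the points. AQP1 lies at 2.83 to 3.11 with DOX and 1.91 to 2.33 with peptide E, GATA3 at 9.87 to 11.35 and 15.3 to 25.08, and the HAVCR1 groups overlap.

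Peptide E replicate 1 was the lowest peptide E library for all 3 genes, with 1.91 for AQP1, 0.58 for HAVCR1 and 15.3 for GATA3. For GATA3 this is the order of most genes listed in the same direction, since replicate 1 was the lowest peptide E library in 225 of the 242 tested genes listed higher. For AQP1 and HAVCR1 it is not: among the 257 tested genes listed lower, replicate 1 was the lowest peptide E library in 68 and the highest in 132. For GATA3, peptide E replicate 1 was thus the library nearest to the DOX group. For AQP1 and HAVCR1 it was the library farthest below that group in the deposited values. With library factors fitted to the authors' fold changes the order of AQP1 was less clear, at 1.87, 2.23 and 1.87 in peptide E replicates 1, 2 and 3. The part that differences between libraries play in these values was not tested.

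Ratios between the genes within a library do not depend on how that library was scaled. The ratio of GATA3 to AQP1 was 4.01, 3.48 and 3.30 in DOX replicates 1, 2 and 3, and 8.01, 8.38 and 10.8 with peptide E. The groups did not overlap, and the ratio was 2.50-fold higher with peptide E by geometric means. GATA3 over HAVCR1 was 8.87, 7.62 and 10.6 with DOX and 26.4, 18.0 and 18.7 with peptide E. Here too the groups were apart, with a 2.31-fold higher ratio by geometric means. The authors had selected GATA3 as 1.5-fold or more higher, and AQP1 and HAVCR1 as 1.5-fold or more lower. A higher ratio of GATA3 to either gene follows from that selection and is no independent result. AQP1 over HAVCR1 was 2.21, 2.19 and 3.22 with DOX and 3.29, 2.15 and 1.74 with peptide E, so these groups overlapped, with means of 2.54 ± 0.586 and 2.39 ± 0.806 (SD, n = 3 each).

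Whether the genes changed by different amounts was tested for the 3 pairs on differences of log2(value + 1) within each library. The change of AQP1 lay below that of GATA3 by a log2 difference of -1.14, and the change of HAVCR1 lay below that of GATA3 by -0.97. Both gave p = 0.1 in the 2-sided exact permutation test and 0.15 after Benjamini-Hochberg adjustment over the 3 pairs. Neither could pass a threshold of 0.05 in this design, and the direction of both follows from the authors' listing. The change of AQP1 against that of HAVCR1 differed by -0.17 (exact permutation p = 0.4, adjusted p = 0.4), within the SD of the library differences, which was 0.17 with DOX and 0.19 with peptide E. That p does not show that these 2 genes responded alike.

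**Figure D2:**
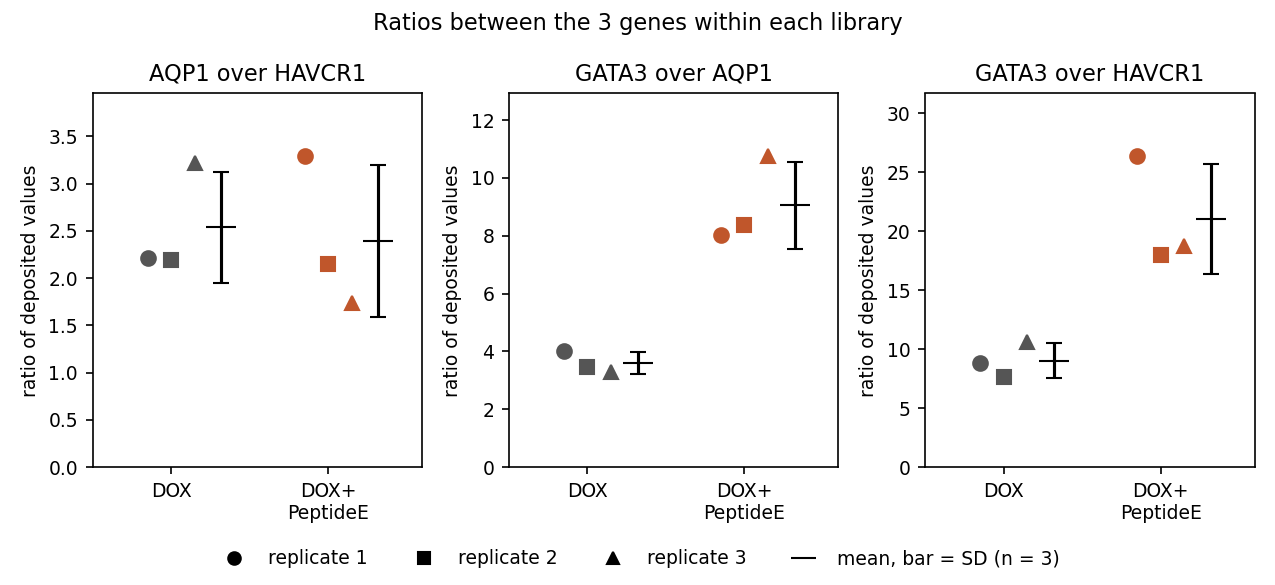
Ratios of deposited values (vertical axes, linear from 0) between the genes within each library, by group, with the mean and SD of 3 libraries. GATA3 over AQP1 spans 3.30 to 4.01 with DOX and 8.01 to 10.8 with peptide E, and GATA3 over HAVCR1 is also apart, while AQP1 over HAVCR1 overlaps.

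The size of each change depended on the scale. In the authors' deposited table the log2 fold change is -0.73 for AQP1 (authors' adjusted p = 0.0277), -0.71 for HAVCR1 (authors' adjusted p = 0.16) and 0.66 for GATA3 (authors' adjusted p = 0.000591). There, 56.7% of the genes have an adjusted p under 0.05, and AQP1 and GATA3 are among them. The log2 ratios of the deposited group means were -0.44, -0.28 and 0.90 for the same genes. Across the 196 genes whose group means both reached 5, this log2 ratio was above the authors' value by a median offset of 0.27, with 90% of genes between 0.22 and 0.31. The offset was 0.28 for AQP1 and 0.25 for GATA3, inside that range, and 0.43 for HAVCR1. Among 126 genes with an overall mean of 0.5 to 2, where HAVCR1 lies, the offset was more variable (90% between 0.05 and 0.45), and 7 genes exceeded HAVCR1.

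**Figure D3:**
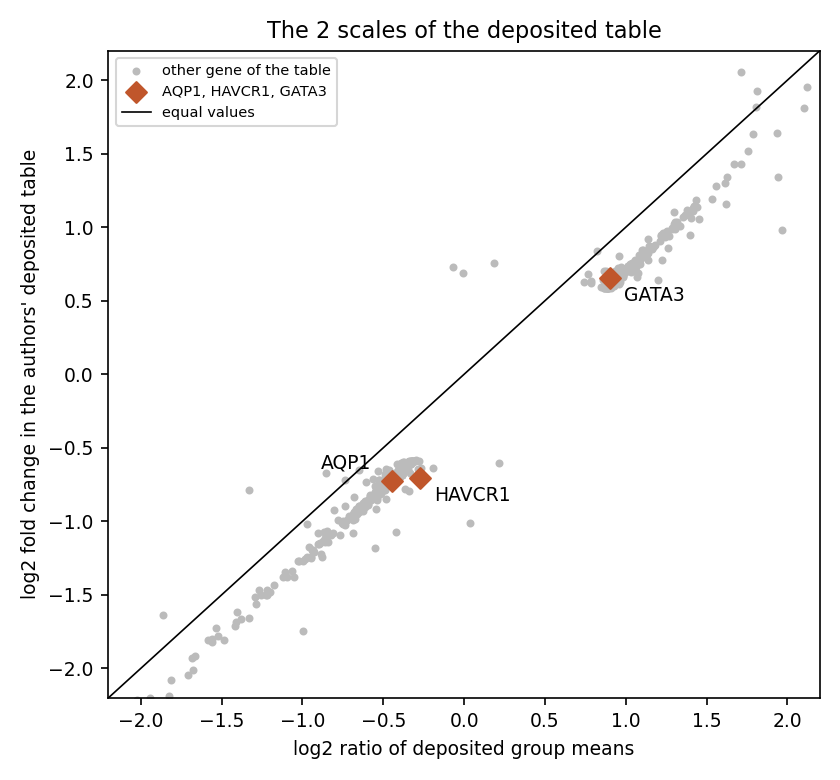
Log2 fold change in the authors' deposited table (vertical axis) against the log2 ratio of deposited group means (horizontal axis) for the genes of the table within 2.2 of 0 on both axes. Most points, AQP1 and GATA3 among them, lie below the line of equal values by about the median offset of 0.27, and HAVCR1 lies farther below it, by 0.43.

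The calls of AQP1 and HAVCR1 turned on the scale. With library factors fitted to the fold changes of the authors' deposited table, AQP1 was at 3.13, 3.33 and 3.36 with DOX and at 1.87, 2.23 and 1.87 with peptide E. Its limma log2 fold change was then -0.52 (limma, adjusted p = 0.0112), and after centring each library on its median it was -0.62 (limma, adjusted p = 0.00584). HAVCR1 still overlapped with these factors, at 1.42, 1.52 and 1.04 with DOX and 0.57, 1.04 and 1.08 with peptide E, and had a log2 fold change of -0.30 (limma, adjusted p = 0.0805). It passed after median-centring only, with -0.46 (limma, adjusted p = 0.0145). GATA3 was still called, with smaller changes of 0.56 with the factors (limma, adjusted p = 0.0128) and 0.52 after centring (limma, adjusted p = 0.0132). The factors moved the log2 fold changes of the tested genes by a median of -0.23 and the centring moved them by -0.30. Relative to the median of all tested genes, AQP1 stood at -0.11 as deposited and -0.14 with the factors, HAVCR1 at 0.06 and 0.08, and GATA3 at 1.03 and 0.94. Higher genes made up 66.8% of the limma calls as deposited, 47.3% with the factors and 42.9% after centring. The factors were fitted to the fold changes by which the genes had been selected, and 95.2% of the tested genes passed with them, so a call with them adds no independent support. After centring 438 of the 499 tested genes passed, so a call there does not set a gene apart either.

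**Figure D4:**
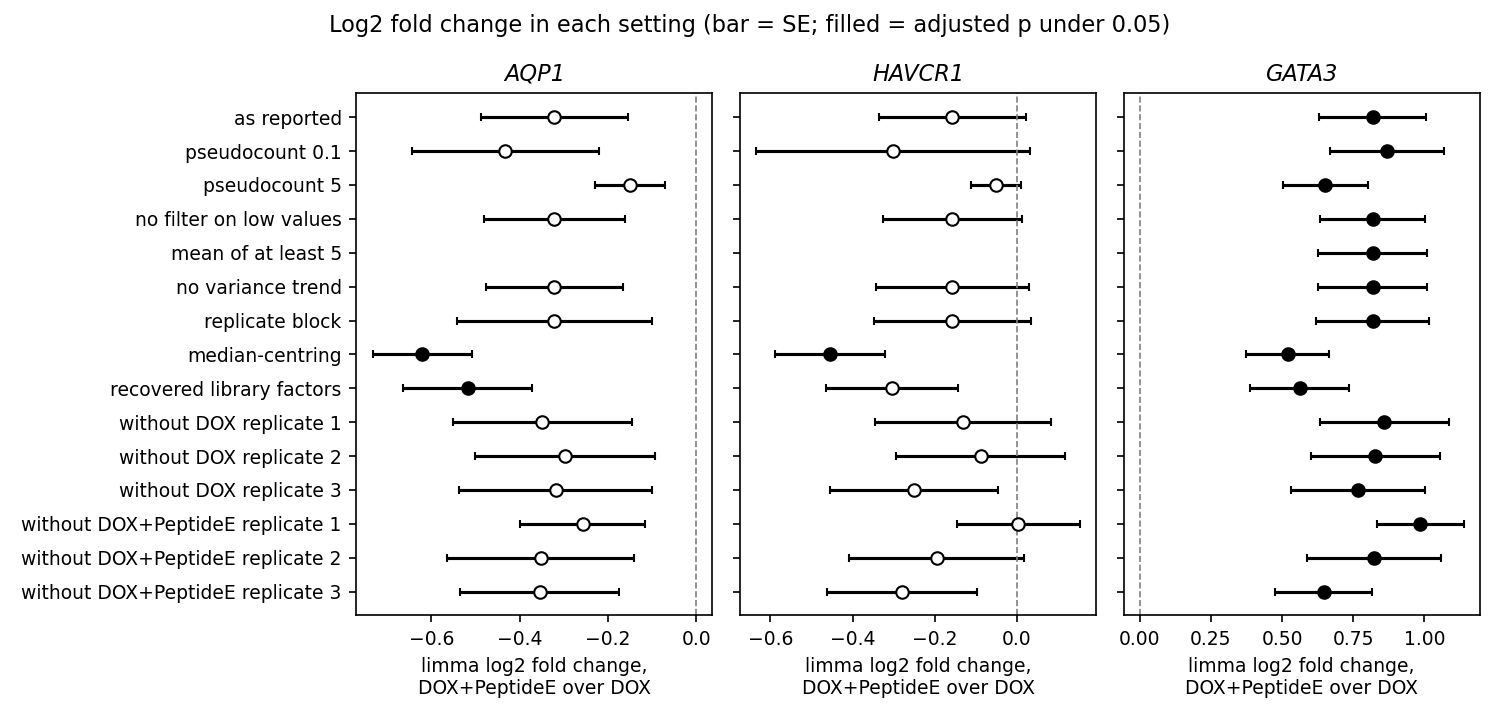
Limma log2 fold change of DOX+PeptideE over DOX (horizontal axes, with a range of its own for each gene) in each setting, with bars of 1 SE and filled points for an adjusted p under 0.05. GATA3 is filled in every setting, AQP1 is filled after median-centring and with recovered library factors, and HAVCR1 is filled after median-centring only and sits at 0.00 without peptide E replicate 1. The setting with a mean of at least 5 could test GATA3 only.

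Other genes of the tubule were taken from lists of segment and injury markers. These lists do not hold every gene expressed in a segment, and genes of the table outside them were not counted. The counts and medians of a list therefore do not describe a whole segment. Of 26 proximal tubule symbols, 2 were in the table, AQP1 and FBP1, both listed lower. FBP1, which encodes the gluconeogenic enzyme fructose-1,6-bisphosphatase, was at 1.05, 1.58 and 1.11 with DOX and fell to 0.74, 0.73 and 0.55 with peptide E (limma log2 fold change -0.42, adjusted p = 0.0299). This call was lost without DOX replicate 2, peptide E replicate 2 or peptide E replicate 3 (limma, adjusted p up to 0.0975). The authors' deposited table gives FBP1 an adjusted p of 1. Not every proximal tubule gene of the table was listed lower. DPP4, a brush border enzyme gene outside the list, had means of 0.797 with DOX and 1.49 with peptide E. It rose in limma (log2 fold change 0.45, adjusted p = 0.0396), where 97.9% of the tested genes listed higher passed. Transporter genes that define the proximal tubule, such as LRP2, CUBN and SLC34A1, were not in the table and were not analysed here, so the table cannot tell whether the line expresses them.

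Of 30 symbols of the distal nephron and collecting duct, 4 were in the table, and the other 3 went against GATA3. GATA3 rose, while KRT7, KRT18 and KRT19, keratins of simple epithelia that are expressed beyond this segment, fell. Each of the 3 keratins had non-overlapping groups, as did 76.1% of the genes in the table, and a limma log2 fold change between -0.68 and -0.46. The calls of KRT7 and KRT19 were each lost in 3 of the 6 fits with 1 library left out: KRT7 without DOX replicate 1, DOX replicate 3 or peptide E replicate 2, and KRT19 without DOX replicate 2, DOX replicate 3 or peptide E replicate 2 (limma, adjusted p up to 0.0735 and 0.151). Keratins have similar sequences, so reads may be shared between them. Of 22 transcription factors of the nephron lineage, POU3F3 was the only one in the table. POU3F3, a POU domain factor of the developing loop of Henle and distal tubule, was at 2.35, 2.15 and 2.04 with DOX and 2.71, 4.36 and 5.61 with peptide E. All of its peptide E libraries lay above the DOX libraries (limma log2 fold change 0.68, adjusted p = 0.0164), and the call was lost without DOX replicate 3 or peptide E replicate 2 (limma, adjusted p up to 0.0656). With all libraries, 97.9% of the tested genes listed higher passed.

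Of 28 symbols of tubular injury and repair, 4 were in the table, all listed lower: HAVCR1, SPP1, GDF15 and IL18. SPP1 encodes osteopontin, GDF15 a stress-induced cytokine and IL18 an inflammasome-processed cytokine. These 3 passed in limma, at log2 fold changes of -0.36 for SPP1, -0.49 for GDF15 and -0.45 for IL18, and HAVCR1 did not. Of the 257 tested genes listed lower, 45.9% passed. The 3 calls were not firm. That of SPP1 was lost in each fit with 1 library left out except the one without peptide E replicate 3 (limma, adjusted p up to 0.127). GDF15 lost its call without DOX replicate 1, DOX replicate 3 or peptide E replicate 2 (limma, adjusted p up to 0.144). IL18, whose groups overlapped, lost it without DOX replicate 1, DOX replicate 3, peptide E replicate 2 or peptide E replicate 3 (limma, adjusted p up to 0.168). The median limma log2 fold change was -0.41 over the 4 injury genes, -0.50 over the 4 distal genes and -0.37 over the 2 proximal genes of the lists. It was -0.22 over all 499 tested genes and -0.41 over the 257 listed lower. The proximal median leaves out DPP4, which rose.

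**Figure D5:**
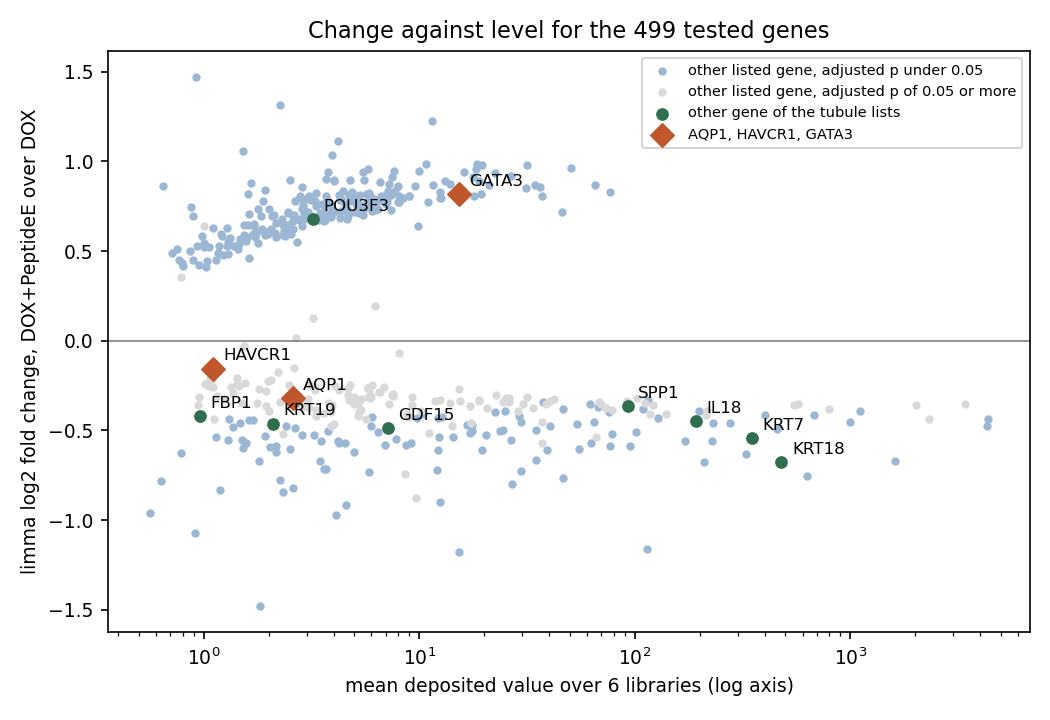
Limma log2 fold change of DOX+PeptideE over DOX (vertical axis) against the mean deposited value over 6 libraries (horizontal log axis) for the 499 tested genes, with AQP1, HAVCR1 and GATA3 as diamonds and other genes of the 4 tubule lists in green. GATA3 (0.82) and POU3F3 (0.68) lie among the genes that rose, while the other 9 genes of these lists lie below 0, with HAVCR1 (-0.16) the nearest to it.

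By family, AQP1 was the only one of 13 aquaporin symbols in the table. GATA3 and HAVCR1 were the only 2 of 10 symbols of the GATA and TIM families, to which they belong. Of 17 symbols of GATA3 cofactors and of proteins that bind, cleave or act with HAVCR1, TBX3 was in the table. TBX3, a T-box transcription factor, was at 1.70, 1.93 and 1.49 with DOX and 2.62, 4.35 and 5.02 with peptide E, and it rose (limma log2 fold change 0.86, adjusted p = 0.00752), as GATA3 did. The call of TBX3 was kept with any 1 library left out, and with all libraries 97.9% of the tested genes listed higher passed. None of 14 loop of Henle symbols was in the table.

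Because AQP1 is also a red cell gene and GATA3 a T cell gene, lists of other cell types were read beside them. None of 19 symbols of T cells and other immune cells, 13 of podocytes and glomerulus or 13 of endothelium was in the table, which holds only genes that the authors called changed and so shows neither their presence nor their absence. Of 15 red cell symbols, HBA1, an alpha-globin gene, was in the table. HBA1 was at 20.85, 22.30 and 21.67 with DOX and 8.72, 7.71 and 10.74 with peptide E, and it fell by 1.18 on the log2 scale (limma, adjusted p = 0.00125). It thus moved the same way as the AQP1 values, and its part in the AQP1 result was not tested. Of 18 fibroblast and mesenchymal symbols, S100A4 and COL6A1 were in the table, both listed lower. S100A4 passed (limma log2 fold change -0.68, adjusted p = 0.00741), while COL6A1 lay below the filter at means of 0.13 and 0.0367. The matrix genes FBN1 and COL12A1, outside that list, went the other way. FBN1 had means of 12.6 with DOX and 25.4 with peptide E (limma log2 fold change 0.89, adjusted p = 0.00856). COL12A1 had means of 11.6 and 25.3 (limma log2 fold change 0.99, adjusted p = 0.00752). Of 26 symbols of epithelial junctions and keratins, only the keratins KRT7, KRT15, KRT18 and KRT19 were in the table, and no junction symbol of the list. All 4 keratins fell in limma, where 23.6% of all tested genes and 45.9% of those listed lower were called lower. The table also held keratins outside the list, among them KRT16, KRT17 and KRT32, which fell too (limma log2 fold changes -0.56, -0.62 and -0.48). Junction genes outside the list went both ways. AFDN rose (limma log2 fold change 0.80, adjusted p = 0.00741), and GJB5 fell (limma log2 fold change -0.50, adjusted p = 0.0152).

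Among 412 other tested genes with a symbol, those whose values over the 6 libraries were most like a member were picked by Pearson's r on log2(value + 1). These values follow the split into 2 groups and the differences between libraries, so r is a description only. GATA3 had many near matches, led by ARID1A, a chromatin remodelling subunit gene (r = 0.999), EPG5, an autophagy gene (r = 0.999), and TENM3, a teneurin gene (r = 0.998), and 170 of the 412 genes had an r over 0.95. AQP1 had 11 such genes, led by SPP1 (r = 0.988), POPDC3 (r = 0.98) and FCGR3A, an Fc gamma receptor gene (r = 0.979). HAVCR1 had 1, KIF13B (r = 0.964), followed by UPK1B, a uroplakin gene (r = 0.909), and TCEA3, a transcription elongation factor gene (r = 0.835). KIF13B, a kinesin gene, was at 8.83, 8.87 and 7.02 with DOX and 6.41, 7.94 and 9.23 with peptide E, with DOX replicate 3 low in its group and peptide E replicate 1 lowest of all, as in HAVCR1. The authors' deposited table lists KIF13B in the other direction, higher with a log2 fold change of 0.73, while the log2 ratio of its deposited means was -0.07, so its values and its listed fold disagree. GATA3 therefore shared the pattern of a large block of the table, and HAVCR1 was close to few genes.

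In the RefSeq gene table no other gene overlapped AQP1, HAVCR1 or GATA3. The strand setting of the read counting is unknown. Of the 10 genes nearest to each by order along the chromosome, 1 was in the deposited table for AQP1 and 0 for HAVCR1 and GATA3. The neighbour of AQP1 was ADCYAP1R1, a neuropeptide receptor gene listed lower, with means of 0.89 with DOX and 0.353 with peptide E, under the filter for testing; it was chosen after its values were seen.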

How the data were processed

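One table for the whole series was used. Per the labels' protocols, mRNA captured on oligo(dT) beads was sequenced as pairs of 150 bp; FastQC 0.11.9 and fastp 0.19.5 appear in the submitters' processing notes, and the file's name refers to RSEM and DESeq. Of the aligner, build, annotation and strand setting, none is stated in the sources used here. The deposited library values are a normalized signal with 2 decimals and no stated unit. The authors also deposited a fold change (a ratio), its log2 value, and unadjusted and adjusted p-values. Libraries were grouped by their titles, and matched to columns by library name.

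Values were analysed as log2(value + 1), which understates changes of low genes, with limma 3.58.1 in R 4.3.3 (variance trend, group term, 3 against 3 libraries, Benjamini-Hochberg over the 499 genes whose mean reached 1 in either group, threshold 0.05). The fit was tested on simulated data with the same spread for every gene and most genes unchanged. This table holds only genes selected as changed, so that test does not show how the fit performs on it. Single genes and pairs were compared with a 2-sided exact permutation test over 20 regroupings. Recovered library factors are 6 multipliers chosen so that ratios of rescaled group means match the authors' fold changes in 196 genes. Members, lists and tests were chosen with earlier results of these data known. Named genes are the 3 members, genes of 14 marker lists, and the 3 genes most like each member. A few genes outside the lists are named to show their limits, and these were picked after their values were seen. The RefSeq table (F.catus_Fca126_mat1.0) served for names and neighbours. No protein or promoter sequences were used here.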

Additional observations from a re-analysis of the deposited data

How the results depend on the processing

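GATA3 kept its direction and its call in all 15 alternatives, at limma log2 fold changes of 0.52 to 0.99. AQP1 was lower in each of the 14 alternatives that tested it, from -0.62 to -0.15, and it passed in 3 of them, median-centring (-0.62), recovered library factors (-0.52) and these factors without peptide E replicate 1 (-0.49), a setting chosen after seeing the data. In that setting HAVCR1 was at -0.17. HAVCR1 passed after median-centring only (-0.46), where 438 of the 499 tested genes passed. With 1 library left out it ranged from -0.28 to 0.00, and its sign reversed, to 0.0040, without peptide E replicate 1; for AQP1 the range was -0.35 to -0.26. The number of listed genes past the threshold was 355, 203 with a mean of at least 5, where fewer genes were tested and AQP1 and HAVCR1 had no value, and 180 to 413 with 1 library left out. It was lowest without peptide E replicate 2; the cause was not tested. The differences in change between the 3 pairs kept their signs in all alternatives, including the one without a pseudocount, which was chosen after seeing the data. With a replicate block the limma adjusted p was 0.165 for AQP1, 0.417 for HAVCR1 and 0.00068 for GATA3, and the count of calls was 362. Same-numbered libraries did not pair: the correlations of their deviations over 499 genes were 0.34, -0.04 and -0.09, and only number 1 correlated best with its own number. Median-centring takes the listed genes as its reference, and these were selected to differ. Depth is unknown, so counting error could not be measured for any of the 3 genes.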
